A study of Mus musculus with 8 samples.

Results

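A set of 50 genes of the cell cycle and of DNA replication was followed across 8 Affymetrix arrays of mouse small intestinal epithelium. The members were chosen by name, 25 that act in mitosis and 25 that act in DNA replication and at the switch from G1 into S phase, with Ccne2 singled out from its values as a gene that leaves the common pattern. Probe sets naming 1 gene only covered 49 of the 50 among 19938 genes on the arrays. No such probe set named Ccnb1, the cyclin B1 gene, so it is not measured here.

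In the small intestine cells divide in the crypts, where stem cells and their transit-amplifying daughters lie, and stop dividing as they move up onto the villus. E2F factors switch on replication genes as a cell passes from G1 into S phase, when cyclin E and its kinase Cdk2 are active. Mitotic genes follow later, under complexes that hold B-Myb or FoxM1 and reach the CHR letters of promoters, while the factor NF-Y binds CCAAT boxes. YAP and TAZ, encoded by Yap1 and Wwtr1, are coactivators that the Hippo pathway holds back, and cell cycle genes are among the genes they are known to act on in dividing cells.

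The RNA came from intestinal epithelial cells isolated from male mice of the ICR stock, aged 8 weeks, 4 days after the small intestine had been transfected in the animal. The siRNA arm had 3 arrays given an siRNA against GFP (siGFP), a jellyfish protein, and 3 given siRNAs against YAP and TAZ (siYAP/TAZ). The shRNA arm used expression plasmids in place of siRNA, with LacZ, a gene of bacteria, as the control target on 1 array (shLacZ) and YAP and TAZ as targets on 1 array (shYAP/TAZ). A note in the labels names each control array as the control for 1 numbered knockdown, which makes 3 siRNA pairs and 1 shRNA pair. They do not say what the arrays of a pair share, nor whether a group's arrays stand for separate mice, and the error behind each p-value is the spread over these arrays alone, part or all of which may be technical. The labels do not give the share of cells that took up the siRNA or plasmid.

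The targeted genes did not differ from their controls beyond the spread between arrays. In siRNA pairs 1, 2 and 3 and the shRNA pair, Yap1 differed by 0.25, -0.87, 0.27 and -0.09 on the log2 scale (exact two-sided permutation p = 0.8 for 3 siRNA arrays against 3). Wwtr1 differed by -0.55, 0.58, -0.86 and 0.06 (exact two-sided permutation p = 0.6). The groups are therefore called by their labels. All 9 epithelial markers were measured. Epcam and Vil1, which encode an epithelial adhesion molecule and the brush border protein villin, stood at percentiles 99.8 and 99.8 of mean level among all genes. The lowest of the 9 was Cdx1, at percentile 75.7. The median deposited intensity lay between 76.4 and 95.5 on the 8 arrays, and values are given as log2 intensity after quantile normalization.

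Nearly all the measured members shared 1 pattern across the arrays, and it ran across the treatment groups. They were high on siYAP/TAZ 1 and siGFP 1, intermediate on both shRNA arrays and siGFP 2, and low on siYAP/TAZ 2, siGFP 3 and siYAP/TAZ 3. The mean log2 level of the 24 measured mitotic members was 7.94 on siGFP 1, 7.37 on siGFP 2 and 5.55 on siGFP 3. On siYAP/TAZ 1, 2 and 3 it was 8.25, 5.82 and 5.62, and on shLacZ and shYAP/TAZ 7.41 and 7.48. The mean of the 25 replication members was 7.41, 7.17 and 5.64 on the siGFP arrays, 7.83, 6.0 and 5.79 on the siYAP/TAZ arrays, and 6.98 and 6.77 on shLacZ and shYAP/TAZ. So a control array, siGFP 3, was the lowest of all, and a knockdown array, siYAP/TAZ 1, the highest. Of the 49 members, 44 had their highest value on siYAP/TAZ 1 and 31 their lowest on siGFP 3.

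**Figure D1:**
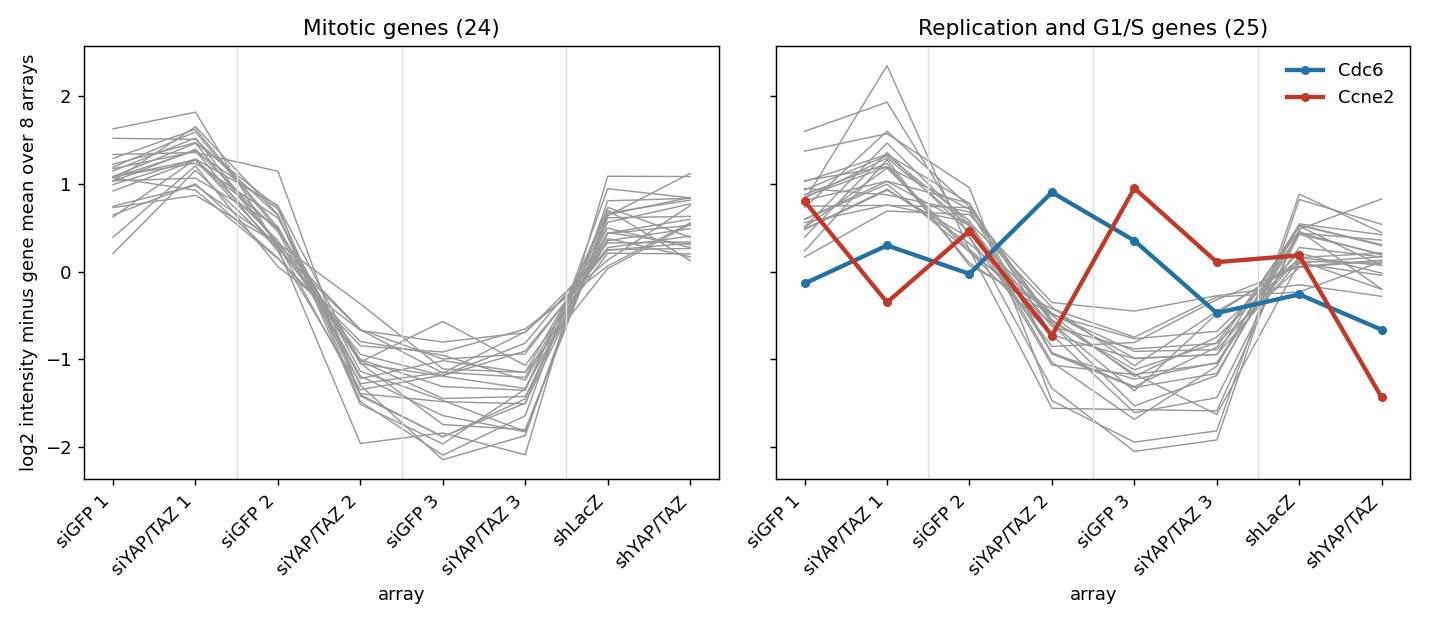
Log2 intensity of each measured member on the 8 arrays, less the mean of that gene over the arrays, for 24 mitotic genes (left) and 25 replication and G1/S genes (right). Each line is 1 gene and the vertical lines part the pairs. The grey lines run together, while Ccne2 (red) is lower on every knockdown array than on its control and Cdc6 (blue) peaks on siYAP/TAZ 2.

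The spread between control arrays was wide for these genes. The 3 siGFP arrays spanned a median of 2.08 on the log2 scale over the members, against 0.73 over all genes. For 48 of the 49 members the range of the 3 siGFP arrays was wider than the siRNA difference between the groups. The same count was not made over all genes, so it does not set the members apart. As a measure of likeness, each member was set against the mean of the other members over the 8 arrays. Pearson's r was over 0.9 for 45 of 49, between 0.5 and 0.9 for 2, Gins1 (0.773) and Gins2 (0.835), and under 0.5 for 2, Ccne2 (-0.12) and Cdc6 (-0.25). The 8 points are the same arrays for every gene, and 8.84% of all genes had r over 0.9 with the mean of the members, so a high value is shared by many genes on these arrays. The first principal component over all genes held 56.8% of the variance and likewise set siYAP/TAZ 2, siGFP 3 and siYAP/TAZ 3 apart from the other 5 arrays.

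Mki67, which encodes the proliferation marker Ki-67, had log2 intensities of 8.83, 8.36 and 6.28 on siGFP 1, 2 and 3, of 8.98, 6.61 and 5.93 on siYAP/TAZ 1, 2 and 3, and of 8.39 and 8.59 on shLacZ and shYAP/TAZ. The siRNA groups overlapped: the lowest control lay below 2 of the 3 knockdown arrays. Top2a, the topoisomerase that untangles sister chromosomes, followed it with 8.85, 8.65 and 5.63 on siGFP, 8.87, 6.10 and 6.01 on siYAP/TAZ, and 7.95 and 8.04 in the shRNA arm. A second, dim probe set of Top2a did not share this pattern and differed by -0.31, 0.18, -0.06 and 0.37 in the 4 pairs.

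Mitotic cyclins and their kinase had the widest swings among the role groups. Ccnb2, which encodes cyclin B2, ranged over 3.90 on the log2 scale, with 9.62, 8.27 and 6.16 on siGFP, 9.81, 6.04 and 5.91 on siYAP/TAZ and 9.08 on both shRNA arrays. The control siGFP 3 stood near its knockdown partner at the low end. For Cdk1, the kinase that drives entry into mitosis, the pair differences were 0.62, -2.16, 0.62 and 0.15; for Ccna2, cyclin A2, they were -0.01, -1.93, 0.27 and 0.03, and for Ccnf, cyclin F, 0.38, -1.32, 0.02 and 0.16. In this role group r with the other members lay between 0.97 and 0.99.

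Among the 7 checkpoint and kinase genes, Plk1, a kinase of mitotic entry and spindle assembly, showed the widest range. Its log2 intensities were 8.64, 7.85 and 5.71 on siGFP, 8.97, 6.16 and 5.53 on siYAP/TAZ and 7.96 and 7.98 in the shRNA arm. All 7 were higher in siRNA pair 1 and lower in siRNA pair 2, and 6 of 7 were lower in siRNA pair 3, Aurka the most at -0.50, with medians of 0.37, -1.52 and -0.06. These include Bub1 and Bub1b, which hold back anaphase, the kinase Ttk, which calls them to the kinetochore, and the Aurora kinases Aurka and Aurkb. Birc5, which encodes the Aurora B partner survivin, was the least like the rest of this role group (r 0.92) and stood at 7.23, 7.28 and 5.87 on siGFP, 8.18, 6.36 and 6.34 on siYAP/TAZ, and 7.15 and 7.77 in the shRNA arm. It was higher in 3 of the 4 pairs.

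Cdc20 and Ube2c act with the anaphase-promoting complex, the first as its activator and the second as the enzyme that hands it ubiquitin. Ube2c stood at 10.33, 9.84 and 7.02 on siGFP, 10.57, 7.63 and 7.47 on siYAP/TAZ, and 10.05 and 9.95 in the shRNA arm, a range of 3.56. Cdc20 swung less, with 7.18, 6.84 and 5.99 on siGFP, 7.99, 6.12 and 6.09 on siYAP/TAZ, and 7.04 and 7.05 in the shRNA arm. Both kept the order of the common pattern, with all 3 low arrays below the other 5.

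The 9 genes of motors and spindle proteins were all lower in siRNA pair 2, with a median of -1.48, and had medians of 0.29, 0.06 and 0.08 in siRNA pairs 1 and 3 and the shRNA pair. Nusap1, which binds spindle microtubules, had the widest range, at 8.42, 7.59 and 5.39 on siGFP, 8.80, 5.87 and 5.83 on siYAP/TAZ and 7.91 and 8.39 in the shRNA arm. Cenpe, a kinetochore motor, was the least like the rest at r 0.96, with 6.88, 6.39 and 5.32 on siGFP, 7.24, 5.39 and 5.59 on siYAP/TAZ and 6.30 and 6.79 in the shRNA arm. Kif11, the motor that pushes spindle poles apart, differed by 0.20, -2.10, -0.02 and -0.34. The kinetochore gene Cenpf, the cytokinesis genes Kif20a, Kif23 and Prc1, and the spindle assembly genes Tpx2 and Hmmr had r between 0.97 and 0.99.

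Replication genes repeated this picture with a smaller swing, a median range of 2.35 over the arrays against 2.70 for the mitotic members. Mcm5, a subunit of the helicase that opens DNA, had 8.66, 7.47 and 5.02 on siGFP, 9.0, 5.74 and 5.15 on siYAP/TAZ and 7.89 and 7.61 in the shRNA arm. Its range of 3.98 was the widest of all members. The other helicase subunits moved with it: in siRNA pair 2 Mcm2, Mcm3, Mcm4, Mcm6 and Mcm7 differed by -1.45, -0.70, -1.50, -0.85 and -1.65, and in siRNA pair 1 by 0.96, 0.68, 0.31, 0.16 and 0.34. Of the genes that load or start the helicase, Cdt1 differed by 0.40, -0.95, 0.05 and -0.22 in the 4 pairs, and Cdc45 by 0.45, -1.24, 0.49 and 0.07. Gins1 and Gins2, subunits of the complex that joins Cdc45 to the helicase, differed by 0.52 and 1.04 in siRNA pair 1 and by -1.0 and -0.49 in siRNA pair 2.

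At the fork, Rfc4, a subunit of the loader that puts the sliding clamp on DNA, stood at 7.90, 7.49 and 4.59 on siGFP, 8.10, 5.06 and 4.72 on siYAP/TAZ and 7.41 and 6.97 in the shRNA arm. Pola1, the catalytic subunit of the polymerase that starts new strands, was the least like the rest of this role group (r 0.91), at 6.73, 6.46 and 4.42 on siGFP, 6.65, 5.19 and 5.30 on siYAP/TAZ and 5.90 and 5.58 in the shRNA arm. Both were lowest on the control siGFP 3. Pcna, the sliding clamp, differed by 0.01, -1.30, 0.31 and -0.66, and its 2 probe sets gave nearly the same differences. Rfc3, Prim1, which makes RNA primers, and Fen1, which trims them, differed by -1.15, -1.71 and -0.91 in siRNA pair 2. Pola1, Prim1 and Fen1 lie, with Gins1 and Hmmr, below percentile 33 of mean level, where a difference can be understated. That limit is set on the mean over the 8 arrays. Some members with a higher mean were also dim on siGFP 3 and siYAP/TAZ 3, such as Rfc4 at 4.59 and 4.72 and Ccnf at 4.73 and 4.75. The swing of such members over the arrays, and their difference in siRNA pair 3, can be understated too.

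For nucleotide supply, Rrm2, the small subunit of ribonucleotide reductase, stood at 7.36, 6.79 and 4.97 on siGFP, 8.89, 4.99 and 4.96 on siYAP/TAZ and 7.03 and 7.37 in the shRNA arm. On siYAP/TAZ 1 it lay 1.53 above its control, the largest positive difference of any member in any pair. Rrm1 and Tyms, which makes thymidylate, differed by 0.39 and 0.46 in that pair and by -1.61 and -1.58 in siRNA pair 2. Chaf1b, a subunit of the histone chaperone that works behind the fork, had 6.86, 6.87 and 4.97 on siGFP, 7.73, 5.59 and 4.51 on siYAP/TAZ and 6.23 and 6.30 in the shRNA arm. Uhrf1, which guides DNA methylation onto new strands, had 7.30, 7.30 and 5.67, then 7.50, 6.34 and 6.29, and then 6.83 and 6.70 on the same arrays. Neither parted the treatment groups.

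Because these genes move together, the promoter windows that RefSeq gives for them were searched for letters known from cell cycle promoters. Windows hold the 250 bases before and 50 after a gene's start in the GRCm38.p6 assembly, and 42 of the 50 members had 46 of them. Ccne2 had no window and could not be searched, and the mitotic windows include that of Ccnb1, which is not measured on the arrays. The E2F letters were TTCCCGC, with the forms TTGGCGC, further TTCGCGC, and finally TTGCCGC, the CCAAT box was searched as CCAAT, and the CHR letters were TTTGAA, besides the forms TTCGAA, and also TTTAAA, on both strands, and matches of different kinds may overlap. CHR letters were in 21 of 22 windows of mitotic members (95.5%), in 9 of 24 of replication members (37.5%) and in 28.8% of all 32851 windows. CCAAT letters were in 90.9% of mitotic windows, 62.5% of replication windows and 37.4% of all. E2F letters were in 17 of 24 replication windows (70.8%), 4 of 22 mitotic windows (18.2%) and 9.57% of all. A match of letters is a description of the window and not a bound site. Of these, 5 windows are shown, from the widest-swinging mitotic cyclin, the proliferation marker, the widest-swinging helicase subunit, the cyclin E1 gene and the loader Cdc6, with matched letters in capitals and each written 5′ to 3′ on the strand of its gene. They lie at chr9:70421505-70421804 (minus strand) for Ccnb2, chr7:135716330-135716629 (minus) for Mki67, chr8:75109259-75109558 (plus) for Mcm5, chr7:38107441-38107740 (minus) for Ccne1 and chr11:98907901-98908200 (plus) for Cdc6.
Ccnb2: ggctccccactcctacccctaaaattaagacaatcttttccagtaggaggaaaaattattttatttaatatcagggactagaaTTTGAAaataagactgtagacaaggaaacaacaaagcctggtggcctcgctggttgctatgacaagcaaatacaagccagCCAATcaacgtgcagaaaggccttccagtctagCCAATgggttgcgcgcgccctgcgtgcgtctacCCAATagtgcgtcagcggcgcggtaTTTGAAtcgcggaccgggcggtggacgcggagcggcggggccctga
Mki67: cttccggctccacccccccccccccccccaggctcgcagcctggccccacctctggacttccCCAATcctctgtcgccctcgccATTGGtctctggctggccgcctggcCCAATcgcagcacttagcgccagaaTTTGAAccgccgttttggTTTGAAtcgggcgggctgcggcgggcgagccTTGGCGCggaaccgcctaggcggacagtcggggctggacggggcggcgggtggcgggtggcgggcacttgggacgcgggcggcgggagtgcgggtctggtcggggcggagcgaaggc
Mcm5: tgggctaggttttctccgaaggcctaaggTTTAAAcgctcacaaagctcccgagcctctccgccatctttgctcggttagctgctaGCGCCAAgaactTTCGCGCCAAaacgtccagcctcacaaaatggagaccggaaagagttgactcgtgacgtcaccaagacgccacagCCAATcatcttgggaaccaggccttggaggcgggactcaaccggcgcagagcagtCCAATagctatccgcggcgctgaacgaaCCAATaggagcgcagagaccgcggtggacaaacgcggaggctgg
Ccne1: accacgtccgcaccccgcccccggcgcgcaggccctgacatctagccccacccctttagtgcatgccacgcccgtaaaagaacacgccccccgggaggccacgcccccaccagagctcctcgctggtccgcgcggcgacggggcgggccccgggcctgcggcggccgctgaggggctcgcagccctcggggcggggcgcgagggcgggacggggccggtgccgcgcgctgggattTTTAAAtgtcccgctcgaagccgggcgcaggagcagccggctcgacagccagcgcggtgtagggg
Cdc6: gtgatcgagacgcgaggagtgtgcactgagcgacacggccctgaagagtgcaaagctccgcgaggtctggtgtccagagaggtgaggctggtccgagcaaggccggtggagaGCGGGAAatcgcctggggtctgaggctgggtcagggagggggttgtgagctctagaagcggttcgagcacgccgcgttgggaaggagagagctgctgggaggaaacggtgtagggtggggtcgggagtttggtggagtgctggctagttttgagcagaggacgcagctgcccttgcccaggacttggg
In the Ccnb2 window there were 3 CCAAT and 2 CHR matches and no E2F match, and in the Mki67 window 3 CCAAT, 2 CHR and 1 E2F. The Mcm5 window held 3 E2F matches, 2 of which overlap, with 3 CCAAT and 1 CHR. The Ccne1 window had 1 CHR match, and the Cdc6 window had 1 E2F match and neither of the other kinds.

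Within pairs, the members stood higher on the knockdown array in siRNA pair 1, lower in siRNA pair 2, and differed little in the others. Some members were dim on both arrays of siRNA pair 3, so their differences there can be understated. In siRNA pair 1, 45 of 49 were higher on the knockdown array, with a median difference of 0.30 for mitotic and 0.40 for replication members. In siRNA pair 2, 48 of 49 were lower, with medians of -1.63 and -1.24. The share of all genes that were lower was 53% in siRNA pair 1 and 48.9% in siRNA pair 2, and 34 members were lower by 2-fold or more in siRNA pair 2, where 8.36% of all genes were; none was higher by as much (4.79% of all genes). Differences of that size were rare in the other pairs: in siRNA pair 1 only Ccne2 was lower (2.34% of all genes) and Rrm2 and Gins2 higher (2.02%), in siRNA pair 3 none was lower (1.66%) or higher (2.16%), and in the shRNA pair Ccne2 was lower (2.76%) and none higher (1.84%). In siRNA pair 3, 16 of 49 were lower (54.5% of all genes), with medians of -0.00 and 0.16, and in the shRNA pair 27 of 49 (52.2% of all genes), with medians of 0.05 and -0.14. Without normalization the mitotic median of siRNA pair 3 was -0.11 and the median over all genes -0.14. The shRNA pair has 1 array per group and therefore no test.

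**Figure D2:**
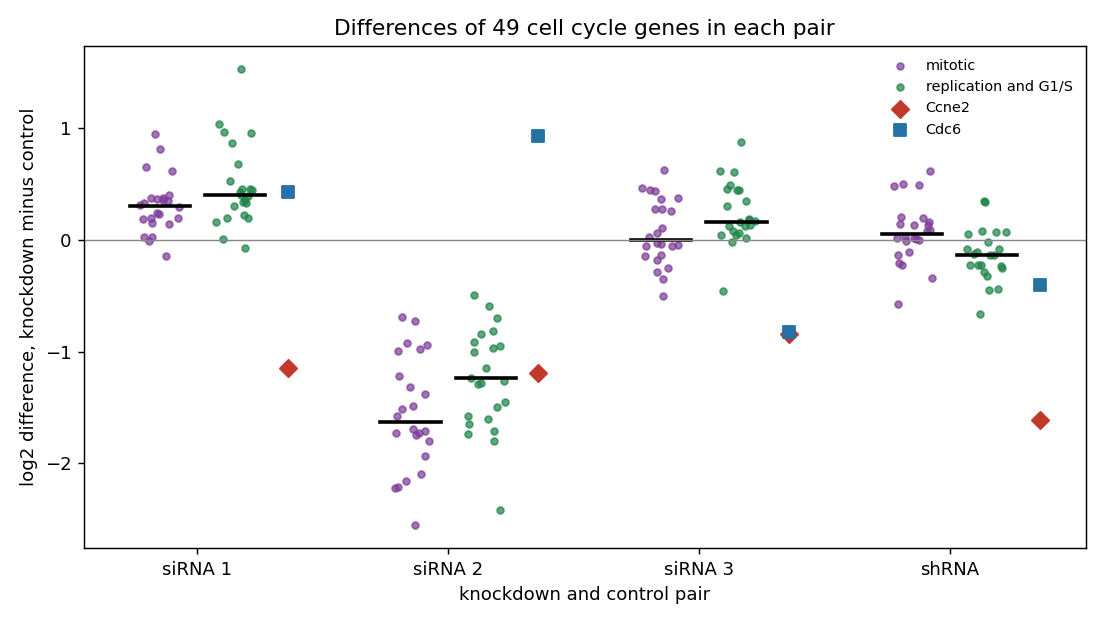
Log2 difference of each measured member between the knockdown array and its control in the 4 pairs, with mitotic genes in purple, replication and G1/S genes in green, Ccne2 as a red diamond and Cdc6 as a blue square, the last 2 drawn beside their group. Black bars are medians over 24 mitotic and 25 replication members: the medians are 0.30 and 0.40 in siRNA pair 1 and -1.63 and -1.24 in siRNA pair 2, and Ccne2 lies at or below -0.84 in all 4.

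Averaged over the siRNA arm, 43 of 49 members stood lower in the siYAP/TAZ arrays and 6 higher, with 53.6% of all genes lower. The median difference was -0.43 for mitotic and -0.15 for replication members and -0.02 over all genes. None passed limma's test with Benjamini-Hochberg adjustment over all genes: 0 of 49 members and 0% of all genes were called. At an unadjusted p under 0.05 there was 1 member of 49, Ccne2, which stood lower, and 1.19% of all genes (0.762% lower). It was also the only member whose siRNA groups did not overlap, where 2.99% of all genes stood lower without overlap. With siGFP 2 and siYAP/TAZ 2 both left out, which was decided with the values in view, the medians turned to 0.14 for mitotic and 0.27 for replication members, and with limma's array weights they were -1.52 and -1.05. Single arrays also turned them: the mitotic median ran from -1.31 without siYAP/TAZ 1 to 0.12 without siGFP 1, and the replication median from -0.80 without siYAP/TAZ 1 to 0.20 without siYAP/TAZ 3. The mitotic median was also above 0 without siYAP/TAZ 3 (0.07), and it was -0.06 without siYAP/TAZ 2 and -1.16 without siGFP 3. Mki67 illustrates the error: the siGFP arrays averaged 7.82 ± 1.36 (SD, n = 3) and the siYAP/TAZ arrays 7.17 ± 1.60 (SD, n = 3). They differed by -0.65 on the log2 scale, with SE 0.86 and a 95% interval from -2.61 to 1.31 (exact two-sided permutation p = 0.8). The smallest p that 3 arrays against 3 allow is 0.1.

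A second fit took all 8 arrays with the pair as a block. It called 0 of 49 members and 0.0201% of all genes, which is 4 genes. By unadjusted p under 0.05 it marked 1 member, again Ccne2, and 7.49% of all genes (4.7% lower). For Mki67 the difference was -0.44 with SE 0.31 and a 95% interval from -1.14 to 0.26 (limma, adjusted p = 0.847). Without the block, with the arm in its place, no gene was called.

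**Figure D3:**
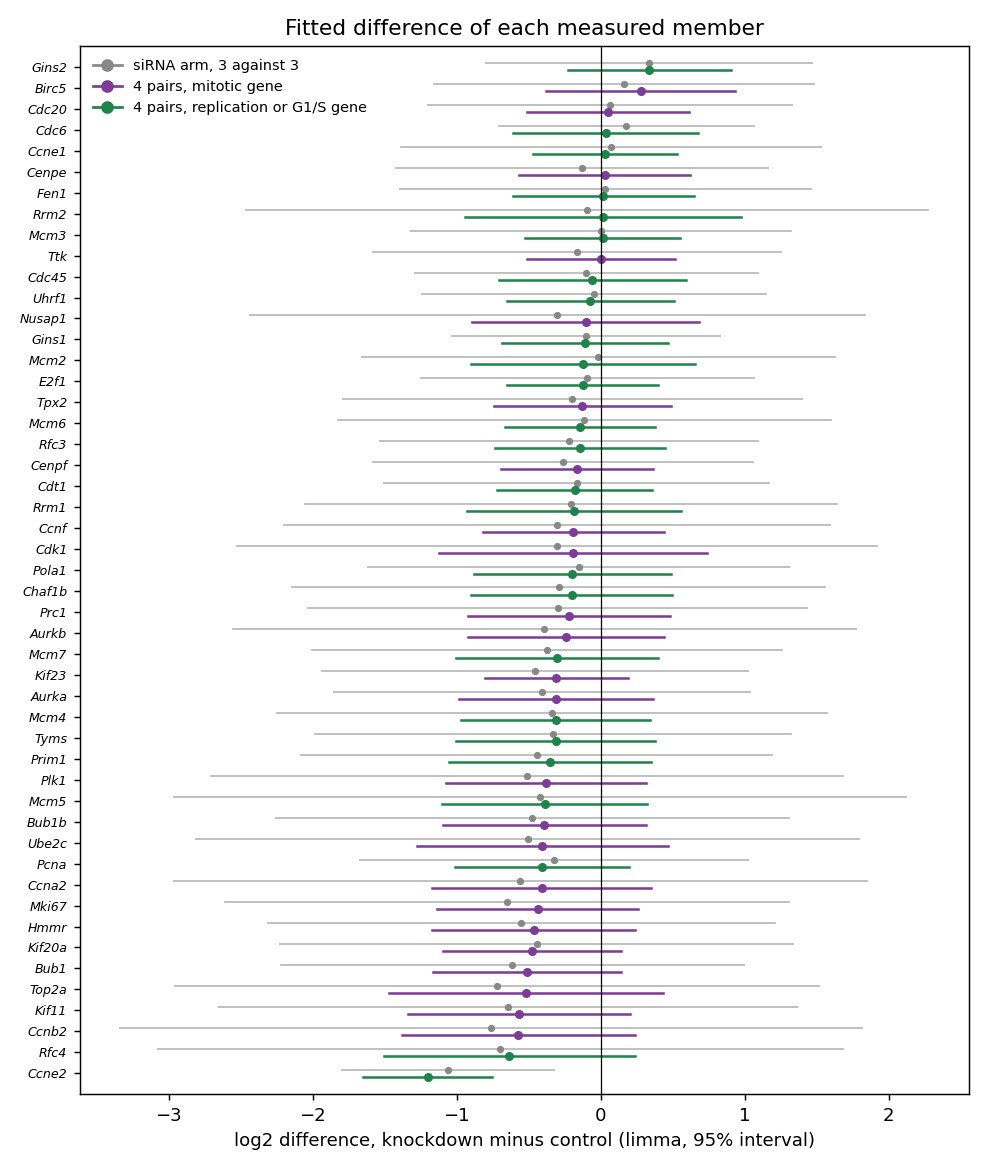
Fitted log2 difference of each measured member with its 95% confidence interval, in the siRNA arm (grey, 3 arrays against 3) and over the 4 pairs (purple for mitotic, green for replication and G1/S genes), ordered by the value over 4 pairs. All grey and coloured intervals span 0 except those of Ccne2, at -1.06 (-1.80 to -0.32) in the siRNA arm and -1.20 (-1.65 to -0.75) over the pairs.

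Ccne2, which encodes cyclin E2, a partner of Cdk2 at entry into S phase, was lower on the knockdown array of all 4 pairs. Its log2 intensities were 8.05, 7.72 and 8.20 on siGFP 1, 2 and 3 and 7.43 on shLacZ. On siYAP/TAZ 1, 2 and 3 they were 6.90, 6.52 and 7.36, and on shYAP/TAZ 5.82. Every knockdown array lay below every control array, by the narrow gap between 7.36 and 7.43 at the closest point. No other member was lower in all 4 pairs, where 8.95% of all genes were, none was higher in all 4 (6.02% of all genes), and no other member had the 4 control arrays apart from the 4 knockdown arrays, where 1.34% of all genes stood lower without overlap.

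In the pairs Ccne2 differed by -1.15, -1.19, -0.84 and -1.62, and 15 of 19938 genes (0.0752%) were lower by at least the smallest of these in all 4 pairs. That limit is set by Ccne2 itself, which is therefore among them by construction. The siRNA means were 7.99 ± 0.25 (SD, n = 3) and 6.93 ± 0.42 (SD, n = 3), so that knockdown arrays were 2.09-fold lower (log2 -1.06, SE 0.32; limma, adjusted p = 1.00). Over the 4 pairs they were 2.30-fold lower (log2 -1.20, SE 0.20; limma, adjusted p = 0.140). By limma's p Ccne2 was number 22 of 19938 genes over the 4 pairs and number 33 in the siRNA arm. So it did not pass the threshold of 0.05 in either fit. Over the alternatives the difference in the 4 pairs stayed between -1.32 and -1.06 and the adjusted p between 0.0252, with array weights, and 1.00, without the block. Without the shRNA pair the adjusted p was 0.699 (limma). Ccne2 was singled out with these values known, so they describe it and are no independent test.

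Ccne2 did not track the swing of the other members. On siGFP 3, where 31 members had their lowest value, it had its highest, and on shYAP/TAZ, where all the others but Cdc6 had neither their lowest nor their highest value, its lowest. Relative to the median of all members it differed by -1.50, 0.19, -0.97 and -1.59 in the 4 pairs. In siRNA pair 2, where nearly all members were lower, it was thus not lower than they were, and its departure rests on siRNA pairs 1 and 3 and the shRNA pair. Another fit over the 8 arrays held the mean of the mitotic members on each array as a covariate. There Ccne2 differed by -1.25 (SE 0.29, 95% confidence interval -1.88 to -0.62; limma, adjusted p = 0.184), and 0 of the 25 replication members passed, against 0.0251% of all genes. By limma's p Ccne2 was number 115 of 19938 genes in that fit. Over its alternatives the adjusted p of Ccne2 in that fit lay between 0.0794, with the replicate block, and 0.537, on the siRNA arrays alone.

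**Figure D4:**
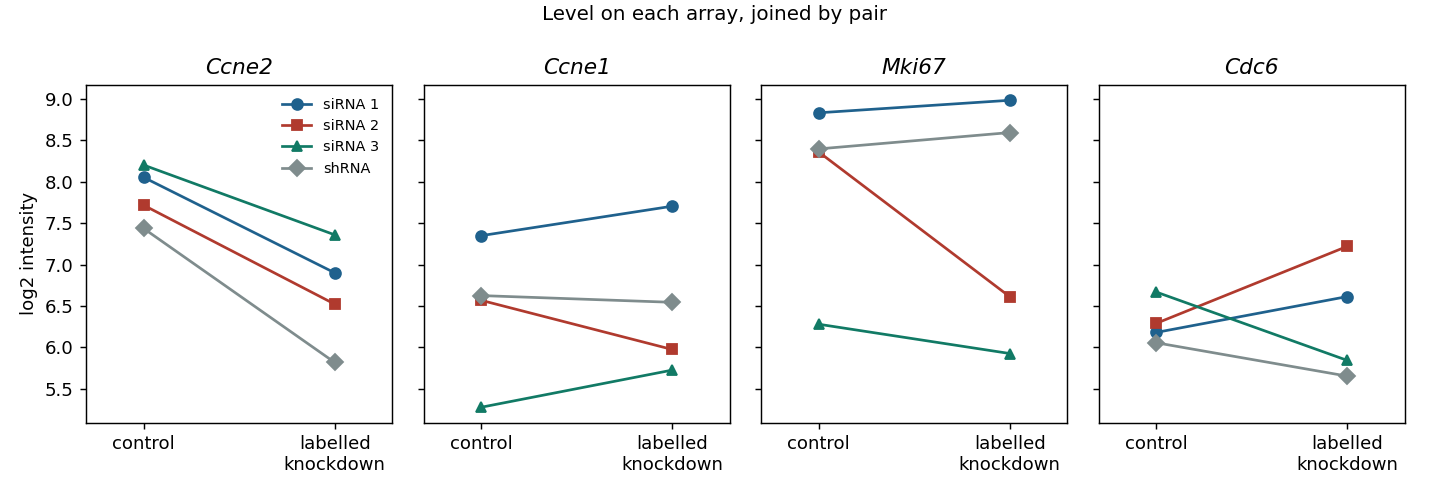
Log2 intensity of Ccne2, Ccne1, Mki67 and Cdc6 on each control array and the knockdown array that the labels assign to it, joined by a line for each of the 4 pairs. All 4 lines of Ccne2 slope down, from 7.43 to 8.20 on controls to 5.82 to 7.36 on knockdown arrays, while the lines of the others run both ways.

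Ccne1 encodes the closely related cyclin E1 and kept to the common pattern (r 0.96). It had 7.35, 6.57 and 5.28 on siGFP, 7.70, 5.98 and 5.73 on siYAP/TAZ and 6.63 and 6.54 in the shRNA arm, so its groups overlapped. In the siRNA arm it differed by 0.07, with SE 0.64 and a 95% interval from -1.39 to 1.53 (exact two-sided permutation p = 1.0), and over the 4 pairs by 0.03 (SE 0.22, 95% confidence interval -0.47 to 0.53). The sign of the siRNA difference turned to -0.72 with array weights. E2f1, the factor that switches on many of the replication genes, had 6.50, 6.33 and 5.25 on siGFP, 6.95, 5.52 and 5.33 on siYAP/TAZ and 6.22 and 5.99 in the shRNA arm. Its r with the other members was 0.98, its siRNA difference was -0.09 (SE 0.51; exact two-sided permutation p = 1.0), and it turned to 0.27 without both arrays numbered 2.

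Cdc6, which loads the helicase onto origins, was the other member outside the pattern. Cdc6 and Ccne2 were each read by 1 probe set, so neither departure could be checked on another. It stood at 6.18, 6.29 and 6.67 on siGFP, 6.61, 7.22 and 5.84 on siYAP/TAZ and 6.06 and 5.65 in the shRNA arm. Unlike Ccne2 it had no common direction: the pair differences were 0.43, 0.93, -0.82 and -0.40, and it was the 1 member that was higher in siRNA pair 2, by 2.31 more than the median member. The difference was 0.18 (SE 0.39; exact two-sided permutation p = 0.8) in the siRNA arm and 0.03 (SE 0.29; limma, adjusted p = 0.991) over the pairs.

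Departures of single members from the median member by more than 0.5 on the log2 scale were seen in every pair, besides those of Ccne2 and Cdc6. In siRNA pair 1 Rrm2, Gins2, Fen1, Mcm2, Birc5 and Chaf1b lay 1.18, 0.69, 0.61, 0.60, 0.60 and 0.52 above it. The most were in siRNA pair 2, where 8 members, Cdc6 among them, lay above and 7 below by that much. There Top2a, Rfc4, Ccnb2, Ube2c, Cdk1, Kif11 and Ccna2 lay at -1.18, -1.04, -0.84, -0.83, -0.78, -0.72 and -0.55 from it, and Gins2, Ccne1, Ttk, Mcm3, Cdc20, E2f1 and Mcm6 at 0.89, 0.79, 0.69, 0.68, 0.66, 0.57 and 0.54. The 7 low ones all ranged over the 8 arrays by more than the median member did (2.46). In siRNA pair 3 Pola1 lay at 0.75, Aurka at -0.63 and Chaf1b at -0.59. In the shRNA pair Birc5, Ttk, Cenpe and Nusap1 lay at 0.64, 0.53, 0.51 and 0.50, and Pcna and Kif20a at -0.64 and -0.55. Above the median member in all 4 pairs were 4 members, Birc5, Gins2, Cenpe and Cdc45, and below it in all 4 were 4, Bub1, Kif11, Kif20a and Hmmr. Because the median is that of the members themselves, each pair puts as many members above it as below. Some can thus lie on the same side in all 4 pairs without a trait of their own, and these counts were not tested. The distances were 0.60, 0.46, 0.34 and 0.64 for Birc5 and 0.69, 0.89, 0.33 and 0.37 for Gins2, and in siRNA pair 1 that of Cenpe was 0.003. On the other side, Bub1 lay at -0.32, -0.35, -0.26 and -0.20. With the mitotic mean as covariate Gins2 had an adjusted p of 0.611 (limma); Birc5 is part of that mean and was not tested against it. These members were named after their values were seen.

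Other genes of the pathway were taken from 7 lists that hold 80 measured genes of 82. None passed over all genes in the siRNA arm or over the 4 pairs (limma), and 7 of 80 (8.75%) were lower and 3 (3.75%) higher in all 4 pairs, where 8.95% and 6.02% of all genes were; these shares do not lie above those of all genes. Among G1 cyclins and kinases (10 of 10 measured), Ccnd2, the cyclin D2 gene, differed by -0.35, -0.85, -0.38 and -1.11, and Cdk6, a kinase partner of D cyclins, by -0.73, -2.07, -0.37 and -0.32. Cdk7, the kinase that activates other CDKs, was higher in all 4 pairs, by 0.37, 0.63, 0.28 and 0.45. Of 9 measured CDK inhibitors and pocket proteins, Rb1, which restrains E2F, stood at 9.16, 8.98 and 8.79 on siGFP, 8.64, 8.43 and 8.52 on siYAP/TAZ and 9.46 and 8.66 in the shRNA arm. As with Ccne2, its control and knockdown arrays did not overlap; over the 4 pairs it differed by -0.53 (SE 0.19; limma, adjusted p = 0.540). Its neighbours Rbl2 and Cdkn2c differed by -0.76, -0.99, 0.10 and -0.12 and by -0.03, -1.32, 0.20 and -0.09.

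Of the 14 E2F, B-Myb and FoxM1 factors, E2f5 was lower in all 4 pairs, by -0.43, -0.96, -0.61 and -1.05 (limma over the pairs, -0.76, SE 0.20, adjusted p = 0.342), while E2f8, a repressor of the family, differed by 0.19, -2.45, 0.09 and -0.25 and Tfdp2, an E2F partner, by -0.74, -1.72, -0.01 and 0.10. The 8 genes of cyclin E turnover had medians of 0.11, -0.73, 0.14 and -0.13. Fbxw7, which marks cyclin E proteins for degradation, differed by -0.44, 0.23, -0.35 and -0.02, and Usp28, which opposes it, by -0.06, -0.85, -0.15 and -0.10. Cul3, also linked to cyclin E turnover, differed by 0.14, -1.13, 0.17 and -0.17.

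Origin firing and checkpoint genes (15 of 16 measured) had medians of 0.45, -0.91, -0.14 and -0.06. Wee1, the kinase that restrains Cdk1, was lower in all 4 pairs, by -0.29, -2.14, -0.16 and -1.02, whereas the checkpoint kinase Chek1 differed by 0.15, -1.74, -0.08 and 0.08 and Rpa2, which coats single-stranded DNA, by 0.29, -0.94, -0.24 and 0.02. Among 12 genes of mitotic exit, the spindle checkpoint gene Mad2l1 and the centriole kinase Plk4 differed by -2.25 and -1.85 in siRNA pair 2 and had r of 0.99 with the mean of the members, and Fzr1, a second activator of the anaphase-promoting complex, ran the other way (1.03 in that pair, r -0.89). For the condensin gene Smc4 and the cohesin genes Smc3 and Rad21 the differences in siRNA pair 2 were -1.12, -1.23 and -0.90.

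The 10 other genes most like the mean of the members over the 8 arrays, of 13315 compared, were Uck2, Eri1, Apex1, Polr3e, Mthfd1, Atic, Amz2, Agpat5, Asf1b and Kif18b, with r from 0.993 to 0.996. Of the 13315, 1473 had r over 0.9, so these 10 are the top of a long list. Uck2, Mthfd1 and Atic act in nucleotide synthesis, Apex1 in DNA repair, Asf1b is a histone chaperone and Kif18b a mitotic motor. Eri1, Polr3e, Amz2 and Agpat5 were not placed in these classes. For Ccne2, the same measure, looked up after its values had been seen, gave Acvr1, Zfp595 and Axin2 as the nearest, with r of 0.953, 0.938 and 0.936. Axin2, a feedback gene of Wnt signalling, differed by -1.39, -1.02, -0.29 and -1.05 in the 4 pairs.

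As list means, markers of crypt cells moved with the members across arrays, though single markers varied. The median r with the mean of the members was 0.78 for stem cell markers and 0.89 for Paneth cell markers. The stem cell markers Axin2 (r 0.11) and Tnfrsf19 (r -0.31) and the Paneth cell marker Nupr1 (r 0.27) did not follow the members. The 14 crypt base stem cell markers had a mean log2 level of 8.16, 7.88 and 6.33 on siGFP, 7.45, 6.40 and 6.13 on siYAP/TAZ, and 7.61 and 6.93 on shLacZ and shYAP/TAZ. The 7 measured Paneth cell markers had 10.38, 10.15 and 8.39, then 10.50, 8.41 and 8.49, and then 10.12 and 9.68. Both lists were thus low on the same 3 arrays as the cell cycle genes. Their part in the swing of the members was not tested, and fewer crypt cells in an isolate and less RNA per cell cannot be told apart here. The stem cell markers differed from the members within pairs: their medians were -0.76, -1.64, -0.16 and -0.52, where those of the members were 0.35, -1.38, 0.13 and -0.02. Olfm4 and Lgr5, which mark stem cells, had the largest siRNA differences of the 14. In siRNA pair 1, where 45 of 49 members were higher, they differed by -2.32 and -1.66. Of the 14 stem cell markers, 10 were lower and 4 higher in that pair. Like Ccne2, 8 of the 14 were lower in all 4 pairs, where 8.95% of all genes were, and none was higher in all 4 (6.02%). Being lower in all 4 pairs is thus not particular to Ccne2. Slc12a2, the third of that list by size, differed by -0.78, -1.95, -1.16 and -0.38.

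**Figure D5:**
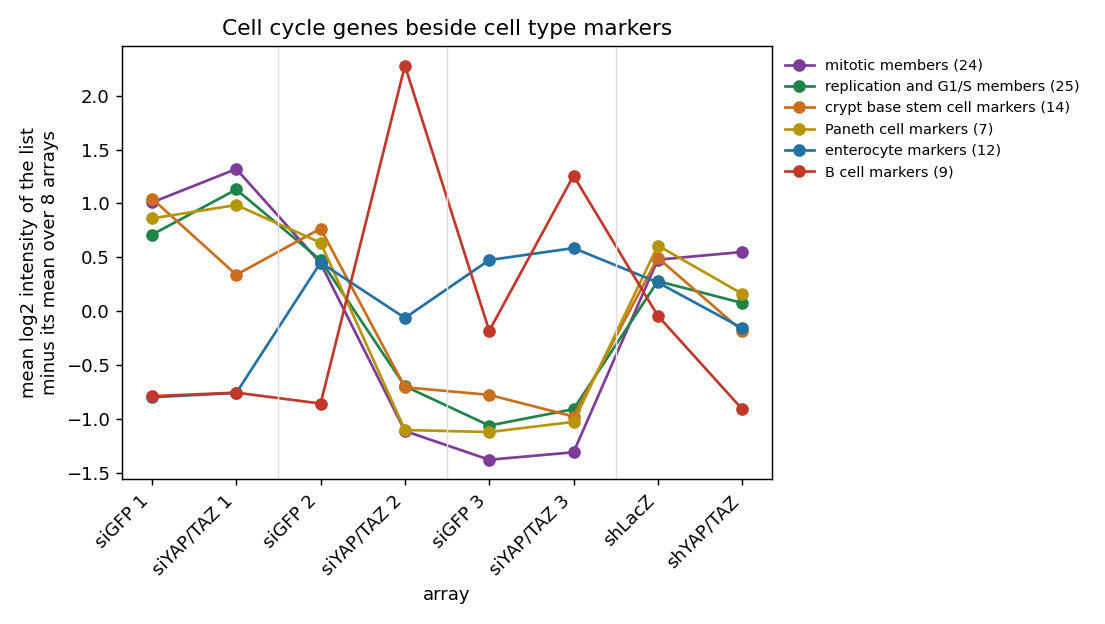
Mean log2 intensity of 6 gene lists on the 8 arrays, each less its own mean over the arrays, for the mitotic and replication members and for markers of crypt base stem cells, Paneth cells, enterocytes and B cells. The cell cycle, stem cell and Paneth lists are low together on siYAP/TAZ 2, siGFP 3 and siYAP/TAZ 3, and the B cell list is high on siYAP/TAZ 2 and siYAP/TAZ 3.

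Markers of other cells were set beside the members as well. The 12 enterocyte markers had mean log2 levels of 11.01 to 12.29 on siGFP, 11.05 to 12.40 on siYAP/TAZ, and 12.08 and 11.65 in the shRNA arm, lowest on siGFP 1 and siYAP/TAZ 1, where the members were highest. The 9 measured B cell markers had 4.88 to 5.55 on siGFP, 4.98 to 8.01 on siYAP/TAZ, and 5.69 and 4.83 in the shRNA arm. All 9 were higher in siRNA pairs 2 and 3 and lower in the shRNA pair, with Cd22, Ms4a1 and Fcer2a at 3.77, 3.98 and 3.72 in siRNA pair 2. Germinal centre B cells divide fast. The 6 measured markers of that stage had medians of -0.09, 0.02, 0.34 and 0.38 in the pairs. In siRNA pair 2 they ran from -1.85, for Rgs13, to 0.32, with 3 lower and 3 higher. T cell markers (7 measured) had medians of -0.40, -0.39, 1.04 and -0.37, myeloid markers (7) 0.19, -0.01, -0.63 and 0.99, and fibroblast markers (6) -0.27, 0.25, -0.38 and -0.09. The part of these cells in the members' values was not tested.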

How the data were processed

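There were 8 arrays, 1 per sample. The authors deposited a linear intensity for each of 28853 probe sets, from biotin-labelled RNA per the labels' protocols. How background was corrected, probes summarised and arrays scaled is not stated in the labels or headers. Log2 medians of the arrays differed by 0.32, so log2 values were quantile normalized. Probe sets naming 1 gene (21789) gave 19938 genes, each by its brightest probe set. limma 3.58.1 in R 4.3.3 compared the siRNA groups, the 4 pairs with pair as a block, and all 8 arrays with the mean of the mitotic members as a covariate, two-sided and Benjamini-Hochberg adjusted over all genes at 0.05, and was tested on simulated data. Differences are knockdown minus control. The number of arrays limits the precision.

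The members and lists were chosen with earlier results of these data known. Cdk6 and Mybl1 are each in both a pathway list and a marker list. Values on every array are given for Mki67, Ccne1, Ccne2, E2f1, the widest-ranging and the least alike member of each of the 10 role groups and any with r under 0.5. From each other list up to 3 genes with the largest siRNA difference are named. The markers Epcam, Vil1, Cdx1, Axin2, Tnfrsf19 and Nupr1 are named for other values, whether or not this rule covers them. Symbols were updated and promoter windows taken from RefSeq tables of GRCm38. Alternatives covered normalization, dim genes, probe sets, the variance prior, array weights, the block and left-out arrays.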

Additional observations from a re-analysis of the deposited data

Results flagged for a closer look

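Kif23, a motor of cytokinesis, was the 1 member that was lower in all 3 siRNA pairs, by -0.14, -0.94 and -0.28 on the log2 scale, and higher in the shRNA pair, by 0.14. The values of siRNA pair 1 and the shRNA pair lay within the quartiles of all genes, -0.27 to 0.22 and -0.27 to 0.21. The share of all genes with these signs was not counted. The shRNA pair has 1 array per group, and the difference between the arms was not tested.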

How the results depend on the processing

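The siRNA arm gave 0 calls over all genes except with the replicate block (1 gene) and when single arrays were left out (0 to 13, the 13 without siYAP/TAZ 1). Over the 4 pairs the 4 calls became 15 with 75th percentile centring, 19 without normalization, 8 without dim genes, 12 with a trended robust prior, 96 with array weights and 0 with no replicate block; with 1 pair left out there were 1 to 26. With the mitotic mean as covariate the 5 calls became 8 with 75th percentile centring, 33 without normalization, 16 with a trended robust prior, 105 with array weights, 22 with the replicate block, 3 with the replication mean as covariate and 0 on the siRNA arrays alone; single arrays gave 0 to 100. The causes were not tested. Among the members, Ccne2 over the 4 pairs with array weights (-1.30, adjusted p = 0.0252) was the only call in any setting. Deviations of same-numbered siRNA arrays from their group means had correlations of 0.755, -0.130 and 0.571 for numbers 1, 2 and 3. By that check same-numbered arrays went together in siRNA pairs 1 and 3 but not in siRNA pair 2. There siYAP/TAZ 2 correlated best with siGFP 3, while the other knockdown arrays, 2 of 3, correlated best with their own number. With array weights the siRNA medians were -1.52 for mitotic and -1.05 for replication members. Cdc6 turned to -0.16 in the siRNA arm and -0.12 over the pairs with array weights and to -0.20 without both arrays numbered 2, and ran from -0.15 to 0.54 and from -0.26 to 0.32 with arrays or pairs left out. Ccne1 turned to -0.72 with array weights and ran from -0.55 to 0.54 and -0.11 to 0.24, and E2f1 turned to 0.27 without both arrays numbered 2 and ran from -0.60 to 0.21. Without normalization the median over all genes was -0.12, 0.05, -0.14 and 0.04 in the pairs.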
